A study of Chlamydomonas reinhardtii with 2 samples.

Results

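In Chlamydomonas reinhardtii RNA, 149 wild-type and 723 sor1 stretches of the genome carried read starts without a break over at least 1000 bases. A block was made from alignments of the full 36 bases by joining occupied start positions that lay at most 36 bases apart. Its span runs from the first to the last start position, and a block was a member when it spanned at least 1000 bases and held at least 100 reads. The wild type gave 149 members among 156448 blocks and sor1 gave 723 among 216523, or 872 of 372971 in all. The members were thus chosen by their read starts, through span and number of reads, so their number, span, reads, evenness and peak are given as descriptions without a test.

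Chlamydomonas reinhardtii is a green alga in which singlet oxygen, an excited form of oxygen, arises at illuminated chlorophyll and triggers an acclimation response. The study set the 4A+ wild type beside sor1, a mutant of the same 4A+ strain named for its resistance to singlet oxygen, with 1 sample for each genotype. The allele carried by sor1 is not given in the sources used here. Cultures of both genotypes were kept in TAP, a medium with acetate, with 12 h of light a day (100 µmol photons m-2 s-1, 25 °C), and were collected 6 h into the light period. The protocol mentions 3 biological replicates, and whether they were pooled into each sample is not stated.

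Most nuclear genes of this alga are split into exons by introns, which splicing removes before the RNA is exported and translated. Reads of mature poly-A RNA start anywhere within an exon and stop at its splice junctions, where a read that crosses the junction does not match the genome over its full length. A long unbroken block is therefore the form that a long exon or an intronless gene takes in such data, and last exons, which carry the 3′ untranslated region, are commonly the longest of a gene. A block can also run through neighbouring transcripts whose read starts lie at most 36 bases apart. Strand is not a column of the files and the gene at each block was not analysed here, so "exon-like" describes the shape of the signal only.

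The wild-type sample was deposited as 2 runs of 3904806 and 3996001 reads, and sor1 as 1 run of 9005690. Full-length alignments numbered 7129311 in the wild type and 8418112 in sor1, and sor1 was also drawn down at random, without replacement, to 7129311 (thinned). The position frames of the libraries differ: wild-type positions end at 118213979 and sor1 positions at 112305237. Positions below are those of each library's own files and run through the whole assembly. With 1 library per genotype, genotype and library preparation cannot be told apart. Intervals on shares are exact binomial 95% intervals that count reads, blocks or members as independent trials, and the limit given for a count of 0 is 3 of the total. They cover counting error only, since amplification copies cannot be told from separate molecules, and they leave out how members vary from run to run.

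Long blocks were 4.85 times as numerous in sor1 as in the wild type, and 4.15 times as numerous after thinning, when sor1 kept 618 members. Members made up 2.68% (2.27 to 3.14) of the 5558 wild-type blocks with at least 100 reads. In sor1 they made up 10.04% (9.35 to 10.8) of 7202 such blocks, and 9.54% (8.84 to 10.3) of 6475 after thinning. They held 767468 wild-type reads, 10.8% of the full-length total, against 22.1% in sor1 and 20.9% in thinned sor1. The excess of long blocks in sor1 was thus present when the totals of full-length reads were equal; the number of distinct start positions was not matched. The counts themselves depend on the joining distance: 20 wild-type and 152 sor1 members formed at 18 bases, and 728 and 2160 at 72 bases.

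The excess was also present among blocks with similar numbers of reads. Of blocks with at least 300 and under 1000 reads, 31 of 1710 in the wild type were members (1.81%), against 288 of 2169 in sor1 (13.3%). Of blocks with at least 3000 reads, 65 of 393 in the wild type (16.5%) and 158 of 471 in sor1 (33.5%) were members. Among the weakest blocks, with under 300 reads, none of 2803 in the wild type reached 1000 bases, which allows a share of up to 0.107%, while 22 of 3671 in sor1 did. Longer blocks were more frequent among blocks with more reads in both libraries.

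Member spans had a median of 1143 bases in the wild type, with quartiles of 1058 and 1223 and a maximum of 2262. In sor1 the median was 1200, the quartiles 1078 and 1378 and the maximum 2396, and thinning moved the median to 1175 and left the maximum in place. At least 1500 bases were spanned by 11 wild-type and 115 sor1 members, and at least 2000 bases by 2 and 19. The minimum of 100 reads removed no block, since every block of at least 1000 bases held more (at least 361 reads in the wild type and 132 in sor1).

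**Figure D1:**
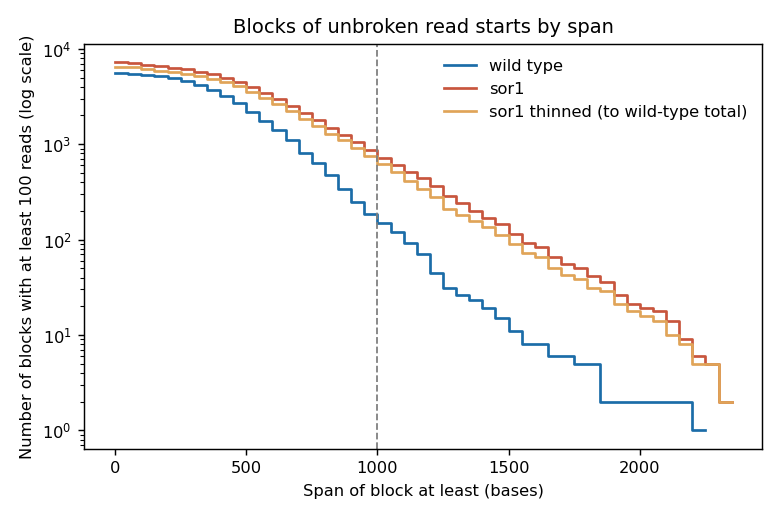
Number of blocks with at least 100 reads (log scale) that reach at least the span on the horizontal axis, in bases, for the wild type, sor1 and sor1 thinned to the wild-type total. The dashed line marks 1000 bases, where the curves stand at 149, 723 and 618 blocks.

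The span threshold cut through a continuous distribution. In the 100 bases below the threshold the wild type had 99 blocks and in the 100 bases above it 57, and sor1 had 326 and 206. The nearest wild-type blocks inside spanned 1000, 1001 and 1004 bases with 981, 1440 and 5404 reads, and the nearest outside 996, 994 and 992 bases with 1056, 1348 and 1330 reads. In sor1 the nearest inside spanned 1000, 1000 and 1004 bases with 441, 3749 and 1027 reads, and the nearest outside, each 1 base short of the threshold, held 929, 1343 and 1467 reads. Blocks on either side of the threshold therefore had overlapping read numbers.

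The longest sor1 member, at 91118063 to 91120458, spanned 2396 bases with 8342 reads on 1686 distinct start positions, and no step between neighbouring starts was wider than 11 bases. The next, at 51825649 to 51828026, spanned 2378 bases with only 1436 reads, and the one after it, at 28435742 to 28438010, spanned 2269 with 2122. After thinning, all of these stayed in 1 piece. The longest wild-type members lay at 77482266 to 77484527 (2262 bases; 3717 and 3757 reads in the runs), at 4165092 to 4167278 (2187 bases; 4172 and 4150) and at 41954676 to 41956512 (1837 bases; 5111 and 5109). Over members, Spearman's rho between span and level was 0.20 in the wild type (n = 149) and 0.17 in sor1 (n = 723). Each member's level and span come from the same reads, and the minimum span narrows the range of spans. These values therefore do not show how closely length and level are tied over all blocks.

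Thinning removed only a minor part of the sor1 reads, so it is a mild check of how firmly the sor1 spans stood. Of 723 sor1 members, 510 (70.5%) remained in 1 piece when the library was drawn down to the wild-type total, and 618 (85.5%) kept a piece of at least 1000 bases. The most pieces into which any member fell was 4. Over 5 draws the number of members was between 597 and 618.

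Levels are given as read starts per kilobase, scaled to 1000000 full-length reads. They ranged from 37.4 to 7218 among wild-type members, with a median of 299.8, and from 14.2 to 5445 among sor1 members, with a median of 111.8 (131.8 after thinning). The median number of reads was 2554 in the wild type and 1201 in sor1. Wild-type members were thus fewer and stronger, and sor1 members extended to weaker transcribed stretches.

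A few members carried much of the signal. The 10 members with most reads held 35.2% of all member reads in the wild type and 15.3% in sor1. The strongest wild-type member, at 42010068 to 42011170, had 56758 reads (27964 and 28794 in the runs) over 1103 bases. The strongest sor1 member, at 36007720 to 36008896, had 53953 reads over 1177 bases. The second strongest sor1 member, at 13196575 to 13197711 with 42751 reads, was placed on the same stretch as the wild type's own member at 19192248 to 19193278, which held 33710.

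Evenness within a block was described by the coefficient of variation (CV) of read starts over consecutive windows of 50 bases, which is 0 when every window holds the same number. The median CV was 1.32 in the wild type (SD 0.502 over members, range 0.383 to 2.86) and 0.906 in sor1 (SD 0.315, range 0.380 to 2.84). It was 0.920 in thinned sor1. Starts occupied a median of 43.2% of positions in wild-type members and 37.7% in sor1 members, and each occupied position held a median of 5.04 and 2.48 reads. The densest 100 bases held a median of 40.2% of a member's reads in the wild type and 26.8% in sor1. Read starts were therefore spread more evenly along sor1 members than along wild-type members, although members of the libraries were mostly different stretches.

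Strong members were less even than weak ones in both libraries. The CV and the level had a Spearman's rho of 0.66 over 149 wild-type members and 0.62 over 723 sor1 members, both measures coming from the same reads. The rule also favours this order, since a weak block with uneven reads breaks more readily and is then not a member. Within one class of reads the libraries still differed. Members of under 1000 reads had a median CV of 0.951 in the wild type (n = 31) and 0.761 in sor1 (n = 310), and those of at least 3000 reads had 1.57 (n = 65) and 1.23 (n = 158).

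**Figure D2:**
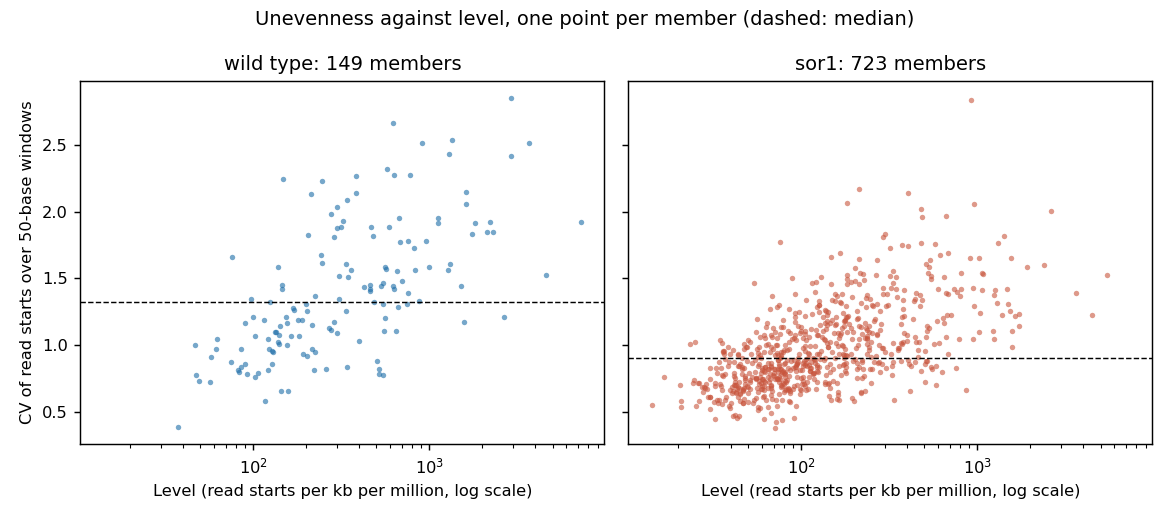
Coefficient of variation of read starts over 50-base windows against level in scaled read starts per kilobase (log scale), with 1 point per member, for the wild type and sor1. Dashed lines are the medians, 1.32 and 0.906, and points rise to the right in each panel.

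Single members show the range from even to peaked. Among members with at least 1000 reads, the most even in the wild type, at 10580740 to 10581888, held 1298 reads with a CV of 0.656, and its 50-base windows ran from 3 to 150 reads. The most even in sor1, at 18866034 to 18867279, held 2100 reads with a CV of 0.578 and windows from 13 to 192. At the other end, the wild-type member at 107209741 to 107211365 held 33795 reads with a CV of 2.86, and its densest 100 bases, near the lower edge, held 69.3% of them. The sor1 member at 58887491 to 58888577 held 8394 reads with a CV of 2.84, and its densest 100 bases held 89.5%. In these last blocks most of the span carried few reads, joined to a narrow, dense stretch.

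The read peak, the densest window of 100 bases, had no fixed place in the blocks. Its centre lay in the outer 20% of the block at either end in 48 of 149 wild-type members (32.2%, 24.8 to 40.4), in 279 of 723 sor1 members (38.6%, 35.02 to 42.2) and in 234 of 618 after thinning (37.9%, 34.0 to 41.8). It lay in the central 20% in 47 wild-type members (31.5%) and in 146 sor1 members (20.2%). From the lower to the upper position, 5 equal parts of the block held 25, 26, 47, 28 and 23 wild-type peaks and 137, 137, 146, 161 and 142 sor1 peaks. The sor1 counts were similar in the 5 parts, and the wild-type peaks were most frequent in the middle part. The window lies wholly in the block, so its centre cannot reach the block's ends and the outermost parts offered it fewer places. The order of the libraries at the ends turned with the settings: the outer shares were 54.5% in the wild type and 41.7% in sor1 at a minimum span of 1500 bases, and 40.0% and 39.5% when starts were joined at 18 bases. Since strand is unknown, the lower and upper ends cannot be read as 5′ or 3′ ends.

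Averaged over members, reads fell towards both edges. The rule ends a block where full-length starts run out, so low shares at the outermost parts follow in part from the rule. The first and last twentieths of the block held mean shares of 2.28% and 2.25% of a member's reads in the wild type, and 3.16% and 3.01% in sor1. The twentieths just below the middle held 6.71% and 7.16% in the wild type, against 5.73% and 5.58% in sor1. The wild-type profile was the more domed.

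**Figure D3:**
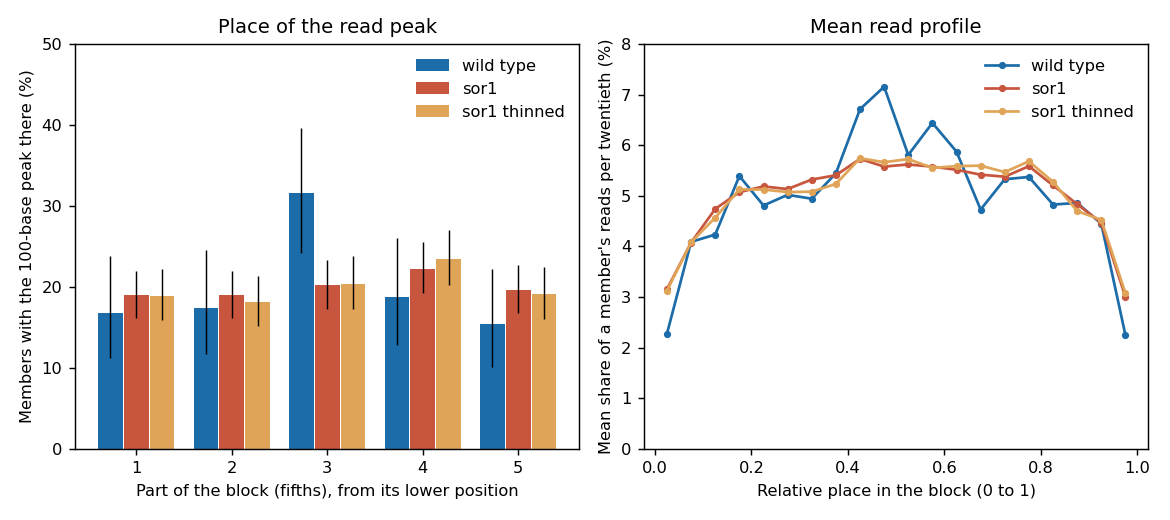
Left, percentage of members whose densest 100 bases lie in each of 5 equal parts of the block, with exact binomial 95% intervals as error bars; right, mean share of a member's reads in each twentieth of the block. The wild-type middle part stands at 31.5% against 20.2% in sor1, and mean shares at the outermost twentieths lie between 2.25% and 3.16%.

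The distance from a member's edge to the next read start was described for members only. Without a share over all block edges beside them, these values do not show whether members were parts of longer signal. The next read start was at most 72 bases away at 148 of 298 wild-type edges (49.7%) and at 690 of 1446 sor1 edges (47.7%). Another start lay that close at both edges of 33 wild-type and 167 sor1 members, and at neither edge of 34 and 200. The median distance to the next start was 73 bases in the wild type and 78 in sor1. Members rarely neighboured each other: 4 of 149 in the wild type and 45 of 723 in sor1 had another member within 5000 bases.

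Trimmed alignments, which the authors made from reads that failed to match over 36 bases, were not used to choose the members. They were a larger part of all alignments in the wild type (9.76%, 9.74 to 9.79) than in sor1 (6.52%, 6.51 to 6.54). Within 36 bases of a member's edges they made up 11.4% of wild-type alignments (1999 of 17602) against 6.94% in the interior. In sor1 they made up 9.16% (4359 of 47572) at the edges and 2.32% in the interior. The rule places an edge where full-length starts run out, which lowers the denominator there, so these shares are given as a description.

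Counted by member, the trimmed share was higher at the edges than inside in 99 of 149 wild-type members (66.4%, 58.3 to 74.0) and 462 of 723 sor1 members (63.9%, 60.3 to 67.4). Blocks of at least 200 and under 1000 bases gave 61.3% of 4773 in the wild type and 59.6% of 5617 in sor1, close to the members. Within 18 bases of the edges the members' counts fell to 56.4% in the wild type and 51.3% in sor1, so the excess rests on the width of the edge zone. A pile of at least 5 trimmed alignments ending at a single boundary, the form that a splice junction or another break in the match would give, stood at the lower edge of 13 and the upper edge of 9 wild-type members. Test boundaries at the middles of the same wild-type members had such piles in 12 and 10 members. Reads fell towards the edges on average, and edges and middles were not matched for depth. The similar counts therefore do not show whether piles were relatively more frequent at wild-type edges than at middles. In sor1, 43 lower and 44 upper edges had one, against 0 and 6 of the middles, where 0 of 723 allows a share of up to 0.415%. No pile stood at either edge of 127 of 149 wild-type and 639 of 723 sor1 members.

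The wild-type runs give the counting error of these measures; they are repeat runs of 1 sample and not biological replicates. By themselves they held 53 and 64 members. Of the 53 members of the first run, 28 (52.8%) were in 1 piece in the second, and of the 64 of the second, 26 (40.6%) were in 1 piece in the first. Over the 149 members of the summed wild type, the log2 ratio of levels between the runs had an SD of 0.0636 and was at most 0.223 in size. The CV differed by a median of 0.031, and the peak window lay within 50 bases in 140 of 149 (94.0%). Level, evenness and peak place were thus repeatable within the sample, while unbroken span at this threshold was not.

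The same stretches were then looked up in the other library by the fine pattern of their read starts, without converting coordinates. Of the 723 sor1 members 543 (75.1%) were placed in the wild-type frame, and of the 149 wild-type members 139 (93.3%) were placed in the sor1 frame. Placement depended on reads: 395 of 413 sor1 members with at least 1000 reads were placed, against 148 of 310 with fewer. When blocks placed by a search of the whole frame were searched again from neighbouring blocks alone, 892 of 925 sor1 blocks were placed and all 892 at the same position. In the wrong orientation, 6 of 925 were accepted. Blocks placed from neighbouring blocks alone, without passing the search of the whole frame, were not part of these checks. Stretches whose patterns differ strongly could not be placed and are missing from what follows.

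Long blocks of sor1 were mostly broken in the wild type, whereas long blocks of the wild type were mostly whole in sor1. Of the 543 placed sor1 members, 50 (9.21%, 6.91 to 12.0) were in 1 piece in the wild type, where 28.5% of all placed sor1 blocks of at least 500 bases were in 1 piece. They fell into a median of 4 pieces there (at most 17), and the longest piece covered a median of 58.4% of the span. Of the 139 placed wild-type members, 98 (70.5%, 62.2 to 77.9) were in 1 piece in sor1, against 80.9% of all placed wild-type blocks of at least 500 bases. Of placed blocks of at least 500 and under 1000 bases, 34.1% of 1862 were whole in the first direction. In the second direction 81.9% of 1458 were whole. Members were thus whole less often than shorter blocks in both directions, but a longer stretch has more places at which to break. Breaks per base were not compared, so the shares do not set members apart from shorter blocks.

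The share that was whole was higher where the other library had more reads. None of 46 sor1 members with under 300 wild-type reads was in 1 piece there, which allows a share of up to 6.52%. Of 115 with at least 3000 wild-type reads 29 (25.2%, 17.6 to 34.2) were whole. In the reverse direction, 51 of 65 wild-type members with at least 3000 sor1 reads (78.5%, 66.5 to 87.7) were whole in sor1. Being chosen for an unbroken run in one library favours that library, and the shares in both directions carry this selection.

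Where the wild type broke within sor1 members, the gaps were narrow and lay at places with few sor1 reads. The 543 stretches held 1900 such breaks, with a median width of 53 bases and a maximum of 813. The sor1 read density at a break had a median of 0.264 of the member's mean and was below the mean at 1782 of 1900 (93.8%). A trimmed wild-type alignment started in 429 of the breaks (22.6%). The 139 wild-type members held 59 breaks in sor1, with a median width of 44 bases, at places where the wild-type density had a median of 0.0786 of the mean, and 47 of them (79.7%) were centred in the outer 20% at either end. No share over all places in the members was set beside these values, so they are descriptions only. Placement by the start pattern also favours low places in common.

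The shapes of the read profiles were shared. Counts over 50-base windows had a median Spearman's rho between the libraries of 0.78 within sor1 members (quartiles 0.66 and 0.86, n = 543) and of 0.77 within wild-type members (0.63 and 0.85, n = 139). The peak window lay within 100 bases in both libraries in 350 of 535 sor1 members (65.4%) and 93 of 139 wild-type members (66.9%), with a median shift of 30 bases. The stretches had been placed by their start pattern, which favours similar profiles.

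The longest members of the libraries were neighbours. The longest sor1 member was placed at 77480248 to 77482643 in the wild-type frame, where it held 1765 wild-type reads in 3 pieces, the longest of 964 bases. The longest wild-type member begins within that stretch and shares 378 bases with it, so that they cover 4280 bases of the wild-type frame together. In sor1 the longest member is followed after 39 bases by another member, at 91120497 to 91122354, with 11822 reads over 1858 bases. The CV was 0.655 in sor1 and 1.03 in the wild type over the first stretch, and 0.824 and 1.88 over the second. In the second stretch the densest 100 bases held 39.9% of wild-type reads and 14.6% of sor1 reads, at nearly the same place.

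**Figure D4:**
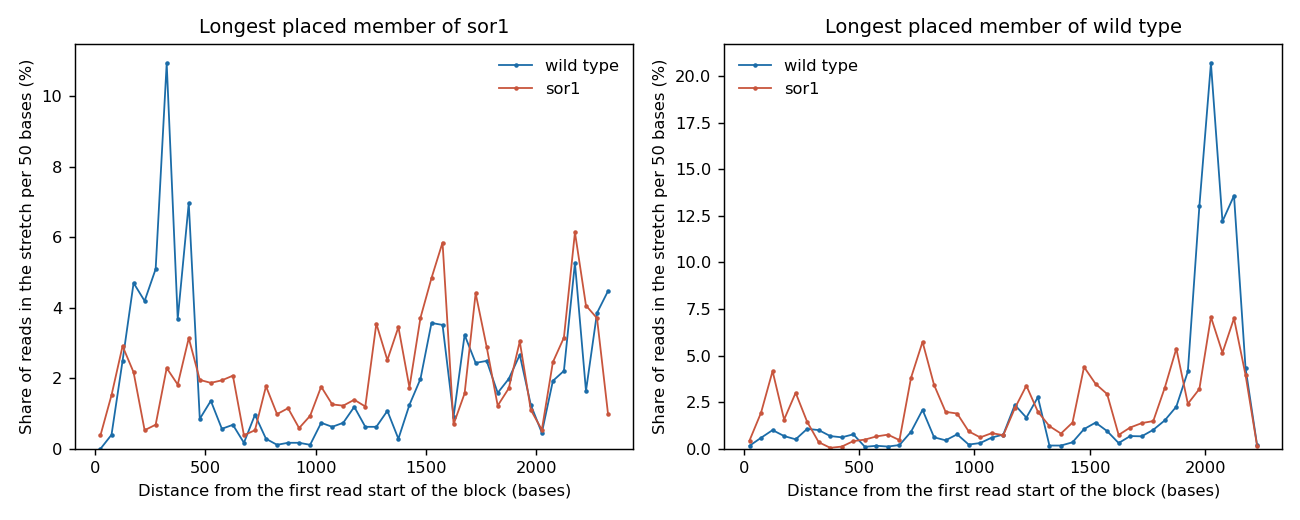
Share of the reads of a stretch in each 50 bases against the distance from the block's first read start, in bases, for the longest sor1 member (left) and the longest wild-type member (right) in both libraries. In the right panel the wild-type line has 1 dominant peak near the upper end, where the densest 100 bases hold 39.9% of reads against 14.6% in sor1.

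At equal reads, sor1 still had more distinct start positions in the same stretches. For each stretch with at least 100 reads in both libraries, the library with more reads was drawn down to the other. Among 535 sor1 members, 526 (98.3%, 96.8 to 99.2) had more occupied starts in sor1, with a median ratio of 1.28, and among all such placed sor1 blocks of at least 500 bases 95.4% did. Among the 139 wild-type members, which had been chosen for unbroken starts in the wild type, 128 (92.1%, 86.3 to 96.0) had more in sor1, with a median ratio of 1.17 and a background of 89.3%. The sor1 background lay just below the members' interval, and the wild-type background lay within it. Most placed blocks of at least 500 bases went the same way, so the difference was not particular to long blocks. Between the wild-type runs, 71 of 149 members had more starts in the first and 77 in the second, with a median ratio of 1.00.

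The CV moved the same way at equal reads. It was lower in sor1 in 501 of 535 sor1 members (93.6%), with medians of 0.994 in sor1 and 1.51 in the wild type, and 86.2% of all such placed sor1 blocks did the same. It was lower in sor1 in 127 of 139 wild-type members (91.4%), with medians of 1.02 and 1.35, against 78.0% of all such placed wild-type blocks. Pieces did not move one way: sor1 members had a median of 1 piece in sor1 and 4 in the wild type, whereas among wild-type members 16 had fewer pieces in sor1 and 44 had fewer in the wild type. The part of library preparation or amplification in these values was not tested.

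**Figure D5:**
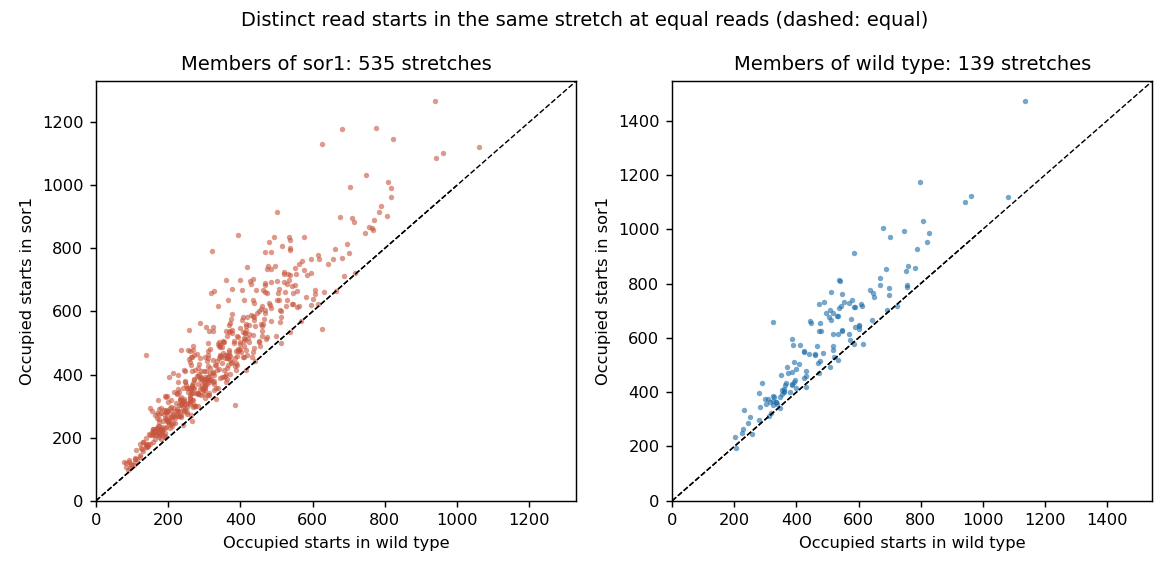
Number of distinct read starts in sor1 against the wild type in the same stretch after drawing both to equal reads, with 1 point per placed member of sor1 (left, 535 stretches) or of the wild type (right, 139 stretches). Points above the dashed line of equality number 526 on the left and 128 on the right.

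The level of a placed member was compared between libraries as reads scaled to all full-length reads, with 0.5 added for log2 values; 1 sample per genotype allows no test. Of the 543 sor1 members, 141 (25.97%, 22.3 to 29.9) were at least 2-fold higher in sor1, against 21.1% of all placed sor1 blocks of at least 500 bases. The wild type was at least 2-fold higher in 35 (6.45%, 4.53 to 8.85), against 8.90%. The median log2 ratio of sor1 to wild type was 0.39 (SD 1.02 over members, range -2.44 to 6.20), and over all placed sor1 blocks it was 0.21. Of the 139 wild-type members, 16 (11.5%) passed 2-fold towards sor1 and 23 (16.5%) towards the wild type, against 10.4% and 15.7%, and the median log2 ratio was -0.06. The direction of the excess thus turned with the library that chose the blocks. For sor1 members both backgrounds, which include the members, lay just outside the members' intervals. For wild-type members the shares were near the background. Counting each start position once left 33 of the 543 sor1 members at least 2-fold higher in sor1 and 2 higher in the wild type. Scaling to the median placed block lowered the number higher in sor1 from 141 to 106. It raised the number higher in the wild type from 35 to 53.

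The sor1 member furthest above the wild type lay at 94873762 to 94875100, a stretch of 1339 bases. It held 16049 reads in sor1 and 185 in the wild type (93 and 92 in the runs), 73.5-fold higher in sor1 after scaling (counting interval 63.6 to 85.4). It was placed from neighbouring blocks alone, with a pattern similarity of 0.27, and had not passed the search of the whole frame. The interval does not cover a wrong placement, which was not tested. The wild-type reads fell into 5 pieces, and the CV was nearly equal, 1.82 in sor1 and 1.79 in the wild type. When both were drawn to 185 reads, sor1 had 112 distinct starts in 6 pieces and the wild type 105 in 5, so this stretch was no more evenly covered in sor1 once reads were equal.

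The next members in order were 100349574 to 100350775, with 2623 sor1 reads and 67 and 66 in the wild-type runs (16.7-fold, 14.0 to 20.03), and 99639124 to 99640336, with 1556 and 48 and 31 (16.7-fold, 13.3 to 21.2). Neither was whole in the wild type, where they fell into 7 and 12 pieces. Both wild-type runs lay far below sor1 for all of these members, as placed. The stretch at 100349574 to 100350775 was also placed from neighbouring blocks alone (similarity 0.25), and that at 99639124 to 99640336 by the search of the whole frame (0.34).

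The members furthest in the other direction differed by less. The stretch at 41244707 to 41245896 held 3043 reads in sor1 and 6834 and 7105 in the wild-type runs, 5.41-fold higher in the wild type (5.20 to 5.63). The stretch at 41383038 to 41384113 held 4616 in sor1 and 10069 and 10385 in the runs (5.23-fold, 5.07 to 5.40), and that at 61482162 to 61483401 held 1907, and 3969 and 4176 (5.04-fold, 4.80 to 5.30). The wild type had the first of these in 2 pieces and each of the others in 1 piece, while sor1 had 1 piece in each by the choice of members.

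Where both libraries had a member at the same place, the sor1 block was usually the longer. There were 116 such pairs overlapping by at least 500 bases. The sor1 block was longer in 92 (79.3%, 70.8 to 86.3) and the wild-type block in 24, with median spans of 1278 and 1150 bases and a median difference of 99. Levels went either way, with medians of 3717 sor1 and 3154 wild-type reads and log2 ratios from -2.39 to 2.60 (median 0.11, SD 0.89 over pairs). Both edges lay within 36 bases of each other in only 27 pairs (23.3%), so the blocks' ends were not fixed points shared by the libraries.

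The pairs furthest apart in span were the sor1 members at 29703134 to 29705279 (2146 bases against 1005 in the wild type), 43500360 to 43502478 (2119 against 1035) and 6119877 to 6122036 (2160 against 1180). They held 3708, 2786 and 9970 reads in sor1. The wild-type runs held 1117 and 1196 reads in the first, 768 and 802 in the second and 2055 and 2192 in the last. In each the wild type had 6 to 8 pieces. At equal reads sor1 had 2, 3 and 2 pieces, and more distinct starts in every one (837 against 535, 606 against 511 and 885 against 716). The other 427 placed sor1 members overlapped no wild-type member by at least 500 bases (2 of them overlapped one by less) and were weaker, with medians of 1336 sor1 and 808 wild-type reads and a median log2 ratio of 0.49.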

How the data were processed

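The deposited files hold whole-number counts of uniquely aligned reads per start position and alignment length, not normalized. Per the deposited readme, the authors aligned 36-base single-end reads with SOAP, allowing 2 mismatches, then shortened reads that failed, down to 21 bases at the least, for a perfect match; the readme names different assembly versions for alignment and positions, and the assembly of each file is not given. Poly-A RNA was randomly fragmented, per the labels. Blocks were built and described in Python 3.11.15 with numpy 2.4.6, pandas 2.3.3 and scipy 1.17.1, and the code was tested on simulated data.

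For placement, log read starts minus their moving mean over 61 bases, with 2000 bases on each side, were matched in both orientations. Blocks of at least 1000 reads and 500 bases were searched over the whole frame, with a minimum similarity of 0.2, and 1.4 times that of the next place. Others were searched within 30000 bases of offsets carried from accepted blocks at most 500000 bases away. These settings were tightened after a first run, and an error in mapped positions was corrected, on the placement checks and not on differences between libraries. Named blocks were the 3 extremes by span, reads, CV, level ratio and span difference, of which the leading ones are described. Members, lists and measures were chosen with earlier results of these data known; the comparisons of breaks, distances beyond the edges, boundary piles, profiles and equal reads were added after the data were seen. Alternatives are given in the closing section.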

Additional observations from a re-analysis of the deposited data

Results flagged for a closer look

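Part of the members' signal lies outside every comparison between the libraries. The 180 sor1 members for which no place was found in the wild-type frame held 122639 reads, with a median of 524 reads a member against 1695 in placed members. The 10 wild-type members without a place in the sor1 frame held 14814 reads, with a median of 774.5 against 2610. Their median spans, 1148 and 1180 bases, were close to those of placed members, 1213 and 1142. They include the second longest sor1 member, at 51825649 to 51828026. Whether these stretches have reads in the other library was not tested.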

How the results depend on the processing

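Of 130 values recomputed, 39 moved, a count by more than 1.5 times and a share or median out of the 95% interval of the reported value, and 91 did not. Some of the 91 could not move. Dropping the minimum of reads, or raising it to 300 in the wild type, removed and added no member. Wider windows act on neither the number nor the span of members, and counting each start once keeps every start position. Joining at 18 bases left 20 wild-type, 152 sor1 and 116 thinned sor1 members (sor1 median spans 1115 and 1106, thinned CV 0.879). Joining at 72 gave 728, 2160 and 1902 (sor1 and thinned spans 1274.5 and 1254, CV 0.977 and 0.969, sor1 peaks in the outer 20% at either end 33.4%). A minimum span of 1500 left 11, 115 and 90, with spans of 1745, 1686 and 1690.5, CV of 1.82, 1.09 and 1.12, and 54.5% of wild-type, 41.7% of sor1 and 43.3% of thinned peaks there. The CV fell to 0.584, 0.510 and 0.511 with each start counted once, and to 1.15, 0.787 and 0.793 in windows of 100 bases. Single wild-type runs gave 53 (median span 1096) and 64 members. Relative to the median placed block, 53 sor1 members were at least 2-fold lower, and 106 were at least 2-fold higher, which did not count as moved. With each start counted once 33 were higher and 2 lower, a count limited by the number of positions in a block. Edge zones of 18 bases gave 56.4% of wild-type and 51.3% of sor1 members with a higher trimmed share at the edges. Under each joining distance and minimum span above, sor1 had more members than the wild type and a lower median CV. Its median CV was also lower in windows of 100 bases and with each start counted once. No paired analysis was possible because each genotype has 1 sample and no test was made. The cause of each shift was not tested beyond the settings' own construction.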
